A study of Mus musculus with 407 samples.

Results

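Potassium channel genes, taken as all genes whose symbol begins with Kcn, were followed across 4 skeletal muscles and 6 ages of male and female mice. The count tables listed 98 such genes among 24458 gene symbols, each on 1 row. A gene was kept if it was above 0.5 CPM (its reads per 1000000 reads counted on genes) in at least 8 of the 407 libraries, which left 63 genes. The measured levels therefore chose these genes, and a gene that passed through a single muscle had to differ between muscles. The age of 27 months had little part in the choice, since 62 of the 63 genes also met the rule without the libraries of 27 months, the exception being Kcng3.

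Total RNA was sequenced from 3 hindlimb muscles (tibialis anterior, gastrocnemius and soleus) and the diaphragm of C57BL/6J mice of both sexes at 6 ages, namely 6, 12, 18, 21, then 24 and last 27 months. Each of the 48 combinations of muscle, sex and age held 6 to 10 libraries, with 8 at 6 months and 10 at 27 months in every muscle and sex. Library totals ran from 38583802 to 104836980 counted reads, with 1 male diaphragm library of 21 months at 300089909. All mice of 1 age were dissected on 1 day, so age and dissection day cannot be told apart, and no label ties the muscles of a mouse to each other.

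Potassium channels set the resting potential of the muscle fibre and end its action potential. Pore subunits fall into voltage-gated, inward rectifier, tandem-pore leak and calcium- or sodium-activated families, and auxiliary and silent modifier subunits change the gating of the pores they join. In muscle, inward rectifiers and the ATP-sensitive channel act at rest and in fatigue, while the apamin-sensitive small-conductance channel is known from developing and denervated fibres.

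The RefSeq promoter table for GRCm38.p6 held an entry for 44 of the 63 genes. The 250 bases before the listed start of 4 genes called with age in at least 4 muscle and sex sets are shown, on the strand of each gene and from 5′ to 3′. Kcnd2 and Kcnj10 were also called in 4 sets at 27 months and are not shown. Capitals mark the myogenic E-box CAGCTG and the Runx core TGTGGT, which were searched on both strands. The windows lie at chr3:89519914-89520163 on the plus strand for Kcnn3, chr3:105451640-105451889 on the plus strand for Kcnd3, chr14:20181783-20182032 on the minus strand for Kcnk5 and chr2:55435720-55435969 on the plus strand for Kcnj3.
Kcnn3: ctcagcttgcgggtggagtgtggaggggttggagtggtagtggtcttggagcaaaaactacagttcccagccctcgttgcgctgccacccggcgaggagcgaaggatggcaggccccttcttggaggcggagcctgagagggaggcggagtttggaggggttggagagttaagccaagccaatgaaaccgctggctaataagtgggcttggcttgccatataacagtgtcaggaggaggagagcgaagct
Kcnd3: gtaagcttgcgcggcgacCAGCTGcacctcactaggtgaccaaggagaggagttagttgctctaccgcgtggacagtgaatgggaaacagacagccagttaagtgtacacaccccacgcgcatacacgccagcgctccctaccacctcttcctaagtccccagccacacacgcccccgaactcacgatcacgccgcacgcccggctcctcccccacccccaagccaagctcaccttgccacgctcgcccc
Kcnk5: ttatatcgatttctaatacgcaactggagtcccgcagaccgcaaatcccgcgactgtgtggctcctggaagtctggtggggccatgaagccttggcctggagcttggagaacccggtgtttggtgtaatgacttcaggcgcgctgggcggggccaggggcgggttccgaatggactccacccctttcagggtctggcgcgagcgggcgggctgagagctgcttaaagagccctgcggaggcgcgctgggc
Kcnj3: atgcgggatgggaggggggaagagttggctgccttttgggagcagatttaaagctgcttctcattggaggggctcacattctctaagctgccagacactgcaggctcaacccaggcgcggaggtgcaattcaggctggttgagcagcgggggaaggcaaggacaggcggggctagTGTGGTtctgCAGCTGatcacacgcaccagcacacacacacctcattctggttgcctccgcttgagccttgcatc
The window of Kcnd3 held the E-box 232 bases before the start, and that of Kcnj3 held an E-box at 65 and a Runx core at 75 bases before it. Those of Kcnn3 and Kcnk5 held neither motif. The Kcnj3 window lies inside the span that the annotation gives the gene, chr2:55411798-55598145, which has an earlier start. The E-box CAGCTG was present in 12 of the 44 windows (27.3%) and in 14.7% of the windows of all 27025 genes in the table, and the Runx core in 15.9% of both.

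A summed level of 8 liver genes or a library total far from the rest set apart 21 libraries, 8 in gastrocnemius, 6 in soleus, 5 in tibialis anterior and 2 in diaphragm, among them the deepest one. In a further check, 6 diaphragm libraries had a median correlation under 0.9 with the other libraries of their group over 9469 genes, with values from 0.708 to 0.896, while the other libraries had 0.902 or more. They were replicate 2 of the males and replicate 2 of the females at 6 months, replicate 0 of the females at 21 months, replicate 0 of the females at 27 months and replicates 6 and 8 of the males at 27 months. All 407 libraries were nearest to their own muscle in the levels of the 1000 genes that differed most between muscles. The main diaphragm values are therefore given with and without these 6 libraries.

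Across all libraries, 19 of the 63 genes were above 0.5 CPM in every library. The rule was met within the diaphragm alone by 57 genes, within the soleus by 55, within the gastrocnemius by 41 and within the tibialis anterior by 38. The members were 25 of the 30 listed voltage-gated pore genes, 9 of 15 inward rectifiers and 6 of 14 tandem-pore genes. All 8 genes grouped with the calcium- or sodium-activated channels were members. That group was drawn by symbol and not by gating, and it held Kcnma1, Kcnu1 and the Kcnn and Kcnt genes. The other members were 8 of 16 auxiliary subunits, 6 of 10 silent modifiers and 1 of 4 noncoding genes. Just inside the rule, the eighth highest level was 0.554 CPM for Kcng3, 0.596 for Kcnt1 and 0.697 for Kcnu1. Just outside it, Kcnmb2 had 0.337 CPM, Kcnrg 0.333 and Kcnj16 0.324.

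Per kilobase of exon, Kcna7, a voltage-gated channel of muscle, had the highest mean level, with 30.9 CPM per kilobase. The inward rectifier Kcnj2 followed with 22.9, Kcnj11, the pore of the ATP-sensitive channel, with 16.8, and Kcnj12, another inward rectifier, with 13.5 CPM per kilobase. Kcnc1 and Kcnc4, both fast voltage-gated channels, had 10.8 and 8.93, and the large-conductance calcium-activated channel Kcnma1 had 7.91 CPM per kilobase. Without the division by length, the noncoding RNA Kcnq1ot1 had the highest mean level at 275 CPM, and per kilobase 11 genes were above it. Kcnq1ot1, at chr7:143213111-143296547, lies within the span of Kcnq1 on the opposite strand, and whether the counting used strand is not stated, so its counts and those of Kcnq1 are uncertain.

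**Figure D1:**
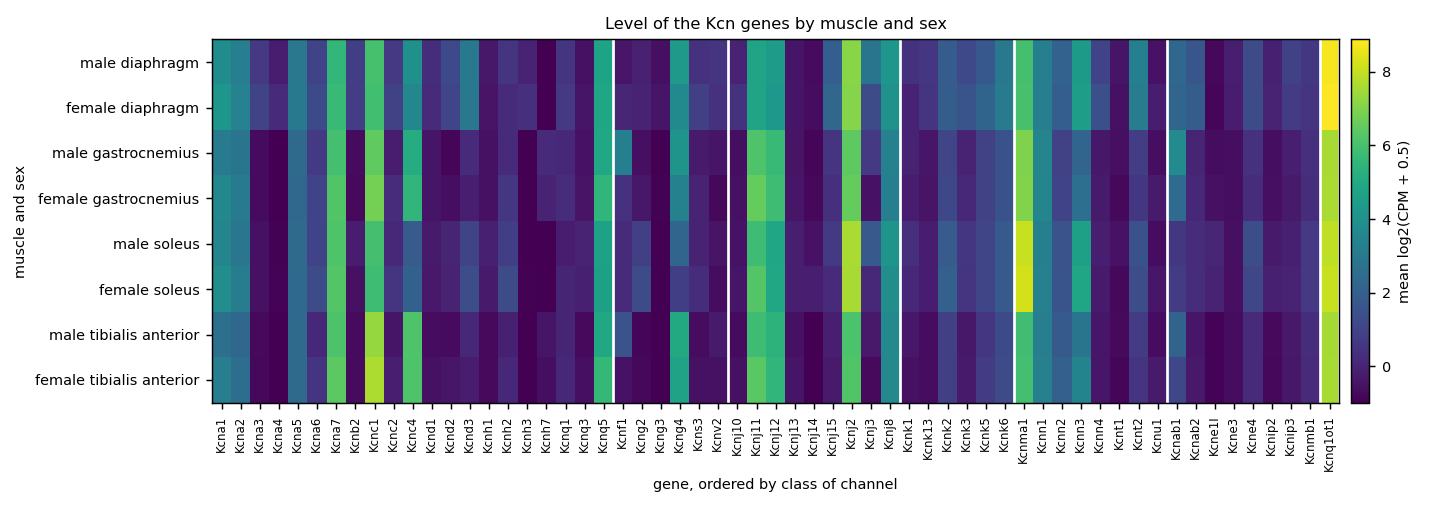
Mean log2(CPM + 0.5) of 59 of the 63 potassium channel genes in each muscle and sex, with genes as columns ordered by channel class, the 8 muscle and sex sets as rows and brighter cells for higher levels. Kcnq1ot1 is bright in every row, at a mean of 275 CPM, while Kcnc4 goes from bright in tibialis anterior to dark in soleus, with male medians of 68.4 and 3.29 CPM.

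The first comparison asked how the channel genes differed between muscles. All folds and tests used counts scaled by TMM, a trimmed mean over genes of the log ratio between libraries. Scaling by library totals instead raised the median of all tested genes in diaphragm against tibialis anterior by 0.97 on the log2 scale in males and by 0.87 in females, so the counts by that scaling are given in square brackets. The background percentages belong to the TMM counts only. The share of all genes called by library totals is not given, here or below. Counts by that scaling therefore cannot be set against these percentages. Against tibialis anterior 29 genes were higher and 15 lower in male diaphragm (background 31.8% and 23.2%) [45 and 8] and 31 and 16 in female diaphragm (36.1% and 19%) [44 and 9]. Against gastrocnemius the diaphragm was higher for 26 and lower for 15 genes in males (29.2% and 22.8%) [40 and 8] and for 28 and 16 in females (31.7% and 20.1%) [38 and 10]. These shares stand beside backgrounds of similar order, and the genes themselves were chosen by level. Soleus against tibialis anterior had 28 higher and 13 lower in males (18.3% and 14.5%) [40 and 8] and 29 and 14 in females (20.8% and 11.9%) [38 and 8]. Diaphragm against soleus had 22 and 18 in males (24.4% and 13.4%) [30 and 7] and 26 and 16 in females (27.3% and 13.3%) [31 and 8]. Fewer genes differed among the other pairs. Gastrocnemius against soleus had 11 higher and 19 lower in males (16.9% and 14%) [8 and 32] and 11 and 18 in females (15.1% and 14.2%) [9 and 30]. Gastrocnemius against tibialis anterior had 15 and 7 in males (11.4% and 2.83%) [23 and 6] and 17 and 8 in females (12.5% and 2.51%) [23 and 7].

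By the fitted levels, the diaphragm was the highest muscle for 24 of the 63 genes in males and 27 in females [37 and 34 by CPM], the soleus for 20 and 19 [14 and 15], the tibialis anterior for 11 and 11 [5 and 7] and the gastrocnemius for 8 and 6 [7 and 7]. The share of all genes that were highest in each muscle was not computed, so these counts have no background. The choice by level also favoured the diaphragm, since 5 of the 63 genes did not meet the rule without its libraries. The highest muscle was the same in both sexes for 58 genes. Neighbouring muscles often could not be ranked, since all 3 pairs of neighbours passed the test for 9 genes in males and 5 in females.

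Kcnc4 had the widest range of muscle means of log2(CPM + 0.5), while by fitted differences some genes near 0 CPM in a muscle, such as Kcnh7 and Kcna4, ranged more widely. The CPM of Kcnc4 in males ran from 56.8 to 104 in tibialis anterior (median 68.4), from 22.2 to 55.9 in gastrocnemius (median 34.4), from 4.02 to 60.9 in diaphragm (median 15.4) and from 0.318 to 15.2 in soleus (median 3.29). Tibialis anterior and soleus did not overlap. The fitted difference of soleus against tibialis anterior was -4.92 on the log2 scale in males (SE 0.10, adjusted p = 8.7e-102) and -4.62 in females (SE 0.08, adjusted p = 1.2e-113). Kcng4, a silent modifier, was also low in soleus, with a difference of soleus against tibialis anterior of -3.34 in males (SE 0.11) and -4.70 in females (SE 0.10).

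The soleus had the highest level of Kcnma1 and of Kcnn3, the small-conductance channel. Kcnma1 ran from 170 to 338 CPM in male soleus (median 272) and from 36.7 to 81 in male diaphragm (median 62.7), with no overlap. Its difference of diaphragm against soleus was -2.58 in males and -2.64 in females (SE 0.04 in both). Kcnn3 ran from 9.21 to 46.7 CPM in male soleus (median 23.8) and from 1.78 to 9.19 in male gastrocnemius (median 4.29). Every male soleus library lay above every male gastrocnemius library, and the difference of gastrocnemius against soleus was -2.32 in males and -2.10 in females (SE 0.07 in both).

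The diaphragm had the highest level of Kcnd3, a transient outward channel, and of Kcnj3, a G protein-gated inward rectifier. Kcnd3 ran from 3.33 to 14.3 CPM in male diaphragm (median 7.22) and from 0.169 to 2.23 in male tibialis anterior (median 0.567), again without overlap. The difference of diaphragm against tibialis anterior was 2.74 in males (SE 0.11) and 3.64 in females (SE 0.10). Gastrocnemius and tibialis anterior, the lowest muscles for Kcnd3, did not pass the test against each other in either sex (adjusted p = 0.077 and 0.33). Kcnj3 had a difference of diaphragm against tibialis anterior of 3.52 in males (SE 0.11) and 3.33 in females (SE 0.14). Kcnt2, a sodium-activated channel, and Kcnj15, another inward rectifier, were also highest in diaphragm, with differences from tibialis anterior of 1.98 and 2.07 in males and of 2.36 and 2.99 in females. Without the 6 libraries of low correlation the differences of Kcnd3, Kcnj3, Kcnt2 and Kcnj15 were 2.93, 3.75, 2.14 and 2.23 in males and 3.63, 3.32, 2.31 and 2.91 in females, all called.

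The second comparison asked how the sexes differed when the 6 ages were averaged with equal weight. To be called, a gene had to differ by more than 1.5-fold at an adjusted p below 0.05. Males were higher for 7 genes and lower for 6 in gastrocnemius, where 3.12% of all tested genes were called higher and 5.05% lower. In tibialis anterior 8 genes were higher and 6 lower (background 2.62% and 2.65%, and 7 and 9 genes when scaled by library totals), in soleus 6 and 3 (1.48% and 2.49%) and in diaphragm 3 and 7 (2.06% and 3.12%).

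Kcnf1, a silent modifier subunit, had the largest difference between the sexes. In gastrocnemius it ran from 4.54 to 23 CPM in males (median 9.49) and from 0.254 to 2.06 in females (median 0.794), so every male library lay above every female one. Males were 11.7-fold higher there (log2 difference 3.55, SE 0.10) and 12.7-fold higher in tibialis anterior (3.67, SE 0.13). In soleus the difference was -0.00 (SE 0.18, adjusted p = 0.99), and in diaphragm Kcnf1 was lower in males by 2-fold (SE 0.21 on the log2 scale).

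Kcnj3 was higher in males in all 4 muscles. The fold was 5.38 in gastrocnemius, 5.3 in soleus, 3.66 in diaphragm and 2.9 in tibialis anterior. In diaphragm it ran from 2.07 to 13.9 CPM in males (median 7.54) and from 0.514 to 4.05 in females (median 2.09), and the ranges overlapped. Kcnab1, a beta subunit of voltage-gated channels, was higher in males in gastrocnemius (log2 difference 1.39, SE 0.06) and tibialis anterior (1.29, SE 0.06), with values of 0.13 (SE 0.09) and 0.02 (SE 0.17) in diaphragm and soleus. Kcng4 was higher in male soleus by 1.83 (SE 0.12), gastrocnemius by 0.90 and diaphragm by 0.73. Kcnu1, a channel of sperm whose level here was at most 1.21 CPM in any library, was lower in males in all 4 muscles, with log2 differences from -0.86 to -1.25. In diaphragm without the 6 libraries of low correlation, Kcnf1 was at -1.01, Kcnj3 at 1.91, Kcng4 at 0.74 and Kcnu1 at -0.81, all called.

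The third comparison asked which channel genes changed with age, each older age against 6 months within 1 muscle and sex, so that the 5 older ages share the 6-month libraries. In these bulk samples fewer cells of a type and less RNA per cell cannot be told apart. At 27 months 32 of the 63 genes were called in at least 1 of the 8 muscle and sex sets, and 72 gene and set pairs were called, 59 higher and 13 lower. The share of all genes called in at least 1 of the 8 sets was not computed. These totals therefore have no background, unlike the counts by set that follow. Genes higher at 27 months numbered 10 in female gastrocnemius (background 4.08%), 10 in female soleus (1.72%), 6 in female diaphragm (0.543%), 6 in female tibialis anterior (5.93%), 9 in male gastrocnemius (3.88%), 7 in male diaphragm (4.16%), 6 in male tibialis anterior (2.81%) and 5 in male soleus (0.808%). Between 54 and 62 of the 63 genes could be tested in a set. In the same sets the genes lower numbered 1, 0, 0, 1, 3, 3, 4 and 1, against backgrounds of 0.898%, 2.41%, 0.692%, 1.08%, 1.53%, 1.44%, 1.29% and 0.378%. At any older age the genes called numbered 20 in female soleus (8.52%), 16 in female gastrocnemius (9.44%), 10 in female tibialis anterior (9.25%), 9 in female diaphragm (2.95%), 15 in male gastrocnemius (8.06%), 14 in male tibialis anterior (8.53%), 11 in male diaphragm (11%) and 6 in male soleus (2.85%). Scaling by library totals moved the median of all genes by at most 0.19 in size, in female soleus, and gave 8 higher and 1 lower there, 3 and 0 in female diaphragm and 6 and 2 in male tibialis anterior at 27 months. The median log2 difference of the tested channel genes lay between -0.01 and 0.18, and that of all tested genes between -0.03 and 0.03.

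**Figure D2:**
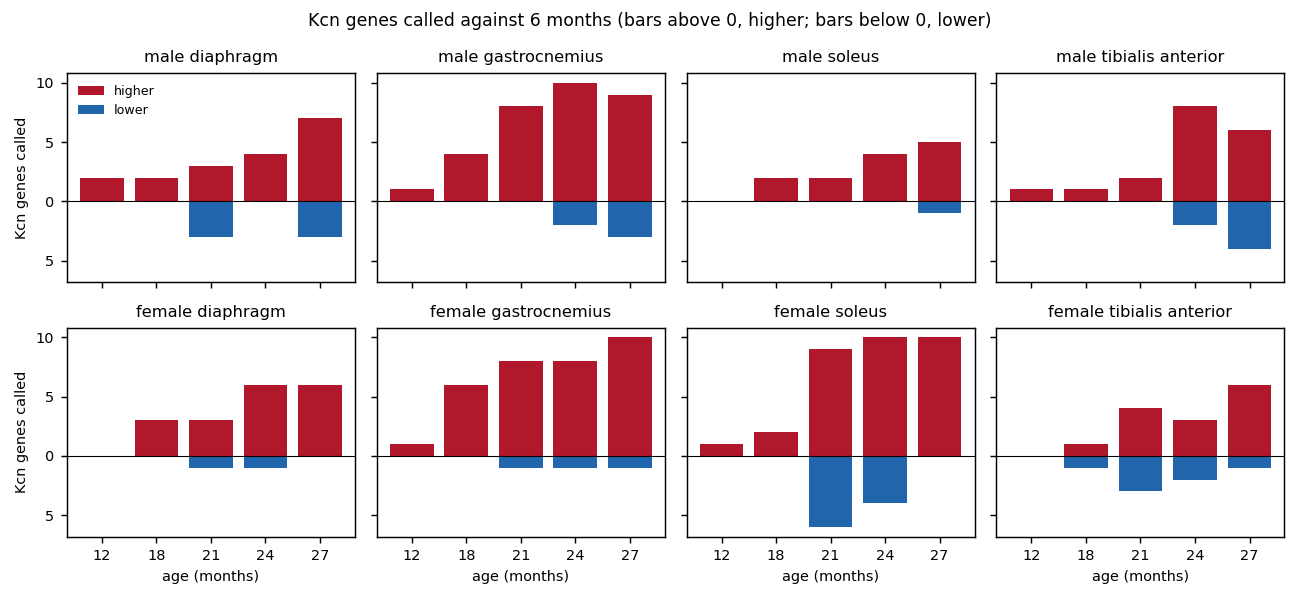
Number of potassium channel genes called higher (above 0) or lower (below 0) than at 6 months, by edgeR's quasi-likelihood test, at each older age in each muscle and sex. Panels are the muscle and sex, and female soleus shows 10 genes higher at 24 and at 27 months where male soleus shows 4 and 5.

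At the ages between, the called genes appeared in a different order in each muscle. The background of each comparison, as the share of all tested genes called higher and lower, is given in brackets beside its counts. In male diaphragm Kcnb2 and Kcnj3 were the 2 genes higher at 12 months, with 0 lower (0.056% and 0.00622%), and again the 2 genes higher at 18 months, with 0 lower (0.0684% and 0.0995%). At 21 months 3 were higher and 3 lower (5.24% and 2.13%), and at 24 months 4 were higher and 0 lower (0.448% and 0.355%). Without the libraries set apart 2 were higher and 2 lower at 21 months, Kcnc4 and Kcna2 being lost, and 5 and 1 at 24 months. In female diaphragm edgeR called 0 genes at 12 months (0% and 0%, with 7 channel genes at an unadjusted p below 0.05), and Kcnb2, Kcnd2 and Kcnj3 made up the 3 higher at 18 months, with 0 lower (0.136% and 0.0803%). There 3 were higher and 1 lower at 21 months (0.438% and 0.834%) and 6 higher and 1 lower at 24 months (0.599% and 1.67%). Kcnb2 and Kcnj3 were thus called in the diaphragm at an age when few of all genes were. Without the 6 libraries of low correlation the counts at 21 months were 4 higher and 2 lower in males and 4 and 0 in females, and at 24 months 5 and 0 in males and 6 and 2 in females, and Kcnb2 and Kcnj3 were among the higher in each.

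The gastrocnemius began with Kcnab1, the 1 gene higher at 12 months in males (0.243% and 0.0722%) and in females (0.15% and 0.0455%), with 0 lower in either. In males 4 genes were higher at 18 months, 8 at 21 months and 10 at 24 months (0.788%, 2.81% and 3.15%), with 0, 0 and 2 lower (0.447%, 0.775% and 0.762%). In females 6, 8 and 8 were higher at these ages (3.43%, 3.12% and 3.4%) and 0, 1 and 1 lower (0.572%, 0.976% and 1.09%). In the female group of 18 months 5 libraries were set apart by liver genes, and without the libraries set apart 3 genes were higher there, Kcnd3, Kcng2 and Kcnq3. Kcnd3 and Kcnq3 were called at 18, 21 and 24 months in both sexes.

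In male soleus 0 genes were called at 12 months by edgeR (0.0456% and 0%, with 14 at an unadjusted p below 0.05). Kcnj3 and Kcnn3 were the 2 genes higher there at 18 and at 21 months, and 4 were higher at 24 months (0.182%, 0.586% and 1.64%), with 0 lower at each (0.143%, 0.182% and 0.365%). In female soleus Kcnd3 was the 1 gene higher at 12 months, with 0 lower (0.111% and 0.00651%), and 2, 9 and 10 genes were higher at 18, 21 and 24 months (0.846%, 1.64% and 1.88%). The female soleus also had the most genes lower at an age between, 0, 6 and 4 (0.814%, 3.98% and 3.47%), with Kcna2, Kcna6 and Kcne4 lower at both 21 and 24 months, although 0 were called lower there at 27 months. Without the libraries set apart 3 genes were lower there at 21 months, Kcna6, Kcne4 and Kcnip3.

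The tibialis anterior had few calls at 12 and 18 months. In males 1, 1 and 2 genes were higher at 12, 18 and 21 months (0.145%, 0.435% and 1.48%), each Kcnab1 or Kcnd3, and 8 at 24 months (4.62%), while 0, 0, 0 and 2 were lower (0.0069%, 0.352%, 0.815% and 0.725%). In females 0, 1, 4 and 3 were higher at the 4 ages (0.089%, 0.794%, 1.88% and 3.01%) and 0, 1, 3 and 2 lower (0.0548%, 0.514%, 1.21% and 1.53%), and Kcnh2 was among the lower at each age from 18 months on, except at 18 months without the libraries set apart.

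Kcnn3 and Kcnd3 were higher at 27 months in all 6 limb sets. In male gastrocnemius Kcnn3 ran from 2.4 to 2.87 CPM at 6 months (median 2.47) and from 4.6 to 9.19 at 27 months (median 7.48). No library of 27 months overlapped with those of 6 months, and the log2 difference was 1.39 (SE 0.17, adjusted p = 1.3e-08). In male soleus, where its level was higher, Kcnn3 ran from 9.21 to 19.9 CPM at 6 months (median 13.8) and from 19.6 to 43.9 at 27 months (median 32.6), and 9 of the 10 libraries of 27 months were above all those of 6 months. The log2 differences in the 6 limb sets lay between 0.82 and 1.39. In male diaphragm the median of Kcnn3 was 18.1 CPM at 6 months and 22.7 at 27 months and in female diaphragm 27.7 and 25.6, and neither was called. Kcnn3 was first called at 18 months in male soleus, at 21 months in both gastrocnemius sets and female soleus, and at 24 or 27 months in tibialis anterior.

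Kcnd3, at chr3:105451890-105674002, had its largest rise in female soleus. It ran there from 0.45 to 1.09 CPM at 6 months (median 0.777) and from 2.14 to 5.79 at 27 months (median 2.88), without overlap, and the log2 difference was 2.30 (SE 0.20, adjusted p = 2e-11). The median had already reached 1.7 CPM at 12 months, when Kcnd3 was called in female soleus, and it was 2.58 at 18 months. In male gastrocnemius Kcnd3 ran from 0.13 to 0.458 CPM at 6 months (median 0.262) and from 0.644 to 1.72 at 27 months (median 0.908), a log2 difference of 1.93 (SE 0.26), again without overlap. In diaphragm, where its level was highest, the medians at 6 and 27 months were 9.08 and 7.12 CPM in males and 12.8 and 6.93 in females. Kcnd3 was called lower in female diaphragm at 24 months only, and not there without the libraries of low correlation.

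**Figure D3:**
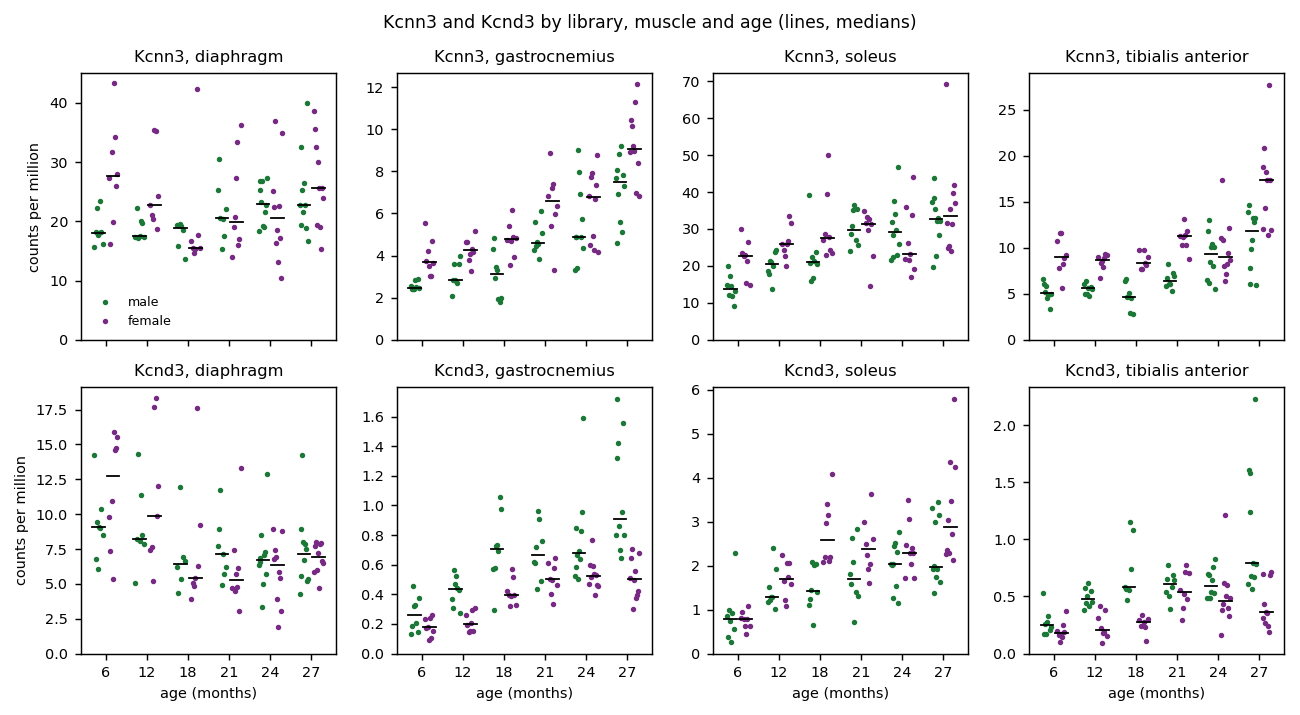
CPM (linear axis) of Kcnn3 and Kcnd3 in every library by age in months, 1 panel per gene and muscle, with green points for male and purple points for female libraries and short black lines for group medians. Both are higher at 27 than at 6 months in the 3 limb muscles, while in diaphragm Kcnn3 stays between 10.5 and 43.4 CPM and Kcnd3 between 1.92 and 18.3 CPM.

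Kcnk5, an acid-sensitive leak channel at chr14:20140057-20181782, was higher at 27 months in gastrocnemius and tibialis anterior of both sexes. In female tibialis anterior Kcnk5 ran from 0.518 to 0.99 CPM at 6 months (median 0.68) and from 1.38 to 3.42 at 27 months (median 2.18), without overlap (log2 difference 1.64, SE 0.21, adjusted p = 4.6e-08). In male tibialis anterior the medians were 0.579 and 1.77 CPM (log2 difference 1.61, SE 0.29), and 8 of 10 libraries lay above all those of 6 months. In gastrocnemius the differences were 1.12 in females and 0.97 in males.

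Several genes of low level rose in limb muscles as well. Kcnj10, an inward rectifier known from glia, had medians of 0.111 and 0.345 CPM at 6 and 27 months in female gastrocnemius and of 0.105 and 0.331 in female tibialis anterior, and it was also called in male gastrocnemius. Kcnq3, a subunit of the M current, was higher in both gastrocnemius sets and in female soleus, where its median went from 0.194 to 0.452 CPM. Kcne1l, an auxiliary subunit, was higher in gastrocnemius of both sexes without overlap, with log2 differences of 1.73 in males (SE 0.33) and 1.32 in females (SE 0.25). Kcnd2, a transient outward channel like Kcnd3, was higher in 4 sets, among them female gastrocnemius with medians of 0.0655 and 0.195 CPM. Kcnj15 was higher in female gastrocnemius and female soleus, and Kcna6, a voltage-gated channel, in tibialis anterior of both sexes, with differences of 0.79 in females and 0.63 in males. With 1 library left out at a time, the Kcna6 call in males was lost in 8 of 18 fits and a Kcnd2 call in male soleus in 6 of 18. Kcng2, a silent modifier, and Kcnip3, a calcium-binding partner of the transient outward channels, were called at 27 months only in female gastrocnemius, at 1.14 and 0.62, and Kcnk13, a leak channel, only in male gastrocnemius, at 1.07. The Kcnip3 call was lost in 5 of 18 fits that left out 1 library. The Kcnk13 value rested on 1 library, and without replicate 1 of 27 months it was 0.69 (adjusted p = 0.073).

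Kcnj3, at chr2:55411798-55598145, was higher at 27 months in 5 sets. In male soleus it ran from 0.607 to 1.86 CPM at 6 months (median 0.833) and from 2.97 to 7.27 at 27 months (median 4.41), without overlap, and the log2 difference was 2.11 (SE 0.25, adjusted p = 1.5e-07). In female diaphragm Kcnj3 ran from 0.514 to 1.42 CPM (median 0.825) and then from 2.12 to 4.05 (median 3.44), also without overlap (1.93, SE 0.26). In female soleus and male diaphragm the differences were 1.95 (SE 0.30) and 1.59 (SE 0.20). In gastrocnemius the sexes differed. Male Kcnj3 rose there from a median of 0.654 to 1.48 CPM without overlap, while the female medians were 0.227 and 0.182 CPM, and the interaction of sex and age was 1.51 on the log2 scale.

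Kcnb2, a delayed rectifier at chr1:15286925-15723751, was called in the diaphragm of both sexes and in no limb set. In female diaphragm it ran from 0.0336 to 0.497 CPM at 6 months (median 0.329) and from 0.63 to 3.34 at 27 months (median 2.46), without overlap, and the log2 difference was 2.79 (SE 0.31, adjusted p = 1.7e-07). In male diaphragm Kcnb2 ran from 0.0976 to 0.503 CPM (median 0.284) and then from 0.447 to 3.52 (median 1.95), with a difference of 2.81 (SE 0.30), and 9 of 10 libraries lay above all those of 6 months. It was called at every older age in male diaphragm and from 18 months on in female diaphragm. The diaphragm change exceeded the gastrocnemius change by 2.45 in males and 2.30 in females (interaction of muscle and age, log2 scale). Without the 6 diaphragm libraries of low correlation Kcnb2 differed by 2.84 in males and 3.12 in females and Kcnj3 by 1.72 and 2.06, and both were called in both sexes.

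**Figure D4:**
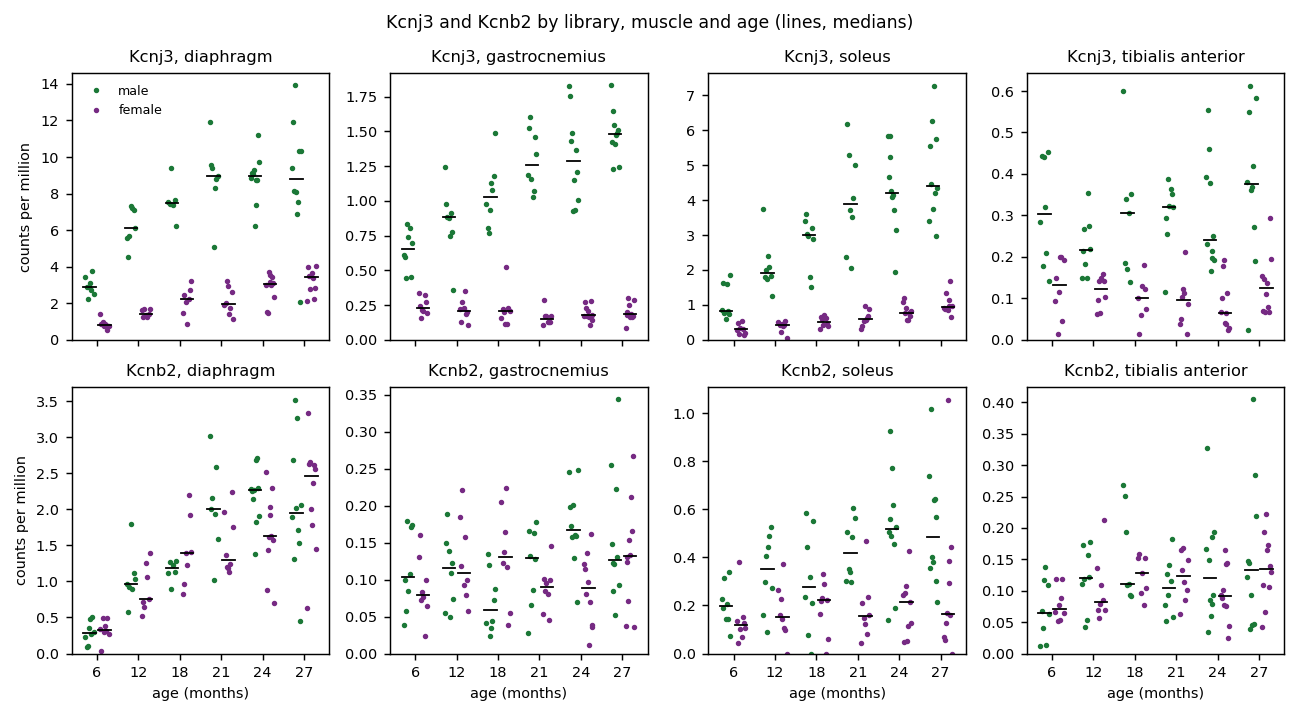
CPM (linear axis) of Kcnj3 and Kcnb2 in every library by age in months, 1 panel per gene and muscle, with green points for male and purple points for female libraries and short black lines for group medians. Over all ages the Kcnj3 median of males is above that of females in each muscle (7.54 and 2.09 CPM in diaphragm), and the Kcnb2 medians in diaphragm go from 0.284 to 1.95 CPM in males and from 0.329 to 2.46 in females between 6 and 27 months.

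Kcnab1, at chr3:64949212-65378225, rose in male gastrocnemius and male tibialis anterior. In male gastrocnemius Kcnab1 ran from 4.73 to 7.03 CPM at 6 months (median 6.06) and from 14 to 22.5 at 27 months (median 17.9), without overlap, with a log2 difference of 1.51 (SE 0.14, adjusted p = 3.4e-11). The median was 12 CPM at 12 months, and Kcnab1 was called there at every older age. The female medians in gastrocnemius were 4.14 and 4.79 CPM. The change differed between the sexes by 1.49 in gastrocnemius and by 0.77 in tibialis anterior (interactions of sex and age, log2 scale).

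Other genes of the diaphragm rose with age too. Kcnc4 in male diaphragm ran from 4.02 to 15.6 CPM at 6 months (median 10.3) and from 7.86 to 60.9 at 27 months (median 20), a log2 difference of 1.05 (SE 0.21), and in females the difference was 0.79 (SE 0.21). Kcna3, a voltage-gated channel best known from T cells, ran from 0.0259 to 0.984 CPM in male diaphragm at 6 months (median 0.643) and from 0.578 to 4.17 at 27 months (median 1.79), a difference of 1.69 (SE 0.50, adjusted p = 0.03). In the same comparison 8 of 10 T cell marker genes were higher, beside 4.16% of all tested genes. The summed level of the T cell markers went from 5.34 to 9.88 CPM (median 8.04) to 6.18 to 92.8 CPM (median 33). The part of these cells in the Kcna3 value was not tested. Kcnab2, another beta subunit, and Kcnj10 were called higher in male diaphragm only among the diaphragm sets, at 1.36 (SE 0.39) and 2.16 (SE 0.69), and Kcnip2, a partner of the transient outward channels, and Kcnd2 in female diaphragm, by 2.82-fold (SE 0.41 on the log2 scale) and by a log2 difference of 0.90 (SE 0.24). Without the 6 libraries of low correlation the 6 genes called higher in female diaphragm were all called, and in males Kcnc4 was at 0.81 and Kcnab2 at 1.14, both called. Kcna3 at 1.58 and Kcnj10 at 2.30 in male diaphragm then missed the threshold (adjusted p = 0.057 and 0.059). With 1 library left out at a time, the calls of Kcnc4, Kcnd2 and Kcnip2 in female diaphragm were lost in 8, 9 and 10 of 18 fits and those of Kcna3 and Kcnj10 in male diaphragm in 3 and 10. Scaled by library totals, Kcnc4, Kcnd2 and Kcnip2 in female diaphragm missed it too (adjusted p = 0.056, 0.090 and 0.098). With the run of consecutive sample numbers in the labels as a factor, only Kcnb2 and Kcnj3 of the 10 genes called in male diaphragm stayed called.

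In the soleus, Kcnf1 was higher at 27 months in both sexes, with medians of 0.241 and 0.853 CPM in males and of 0.29 and 0.936 in females, and the ranges of the ages overlapped in both. Without replicate 4 of 6 months the male value missed the threshold (adjusted p = 0.053). Kcnf1, at chr12:17172100-17176888, was also higher in male tibialis anterior (log2 difference 0.74, SE 0.25), a call lost in 7 of 18 fits that left out 1 library. At 21 months Kcnf1 was called lower in female gastrocnemius and in female tibialis anterior, also without the libraries set apart. It was called in neither at 27 months. Kcnj12 ran from 20.7 to 26.6 CPM in female soleus at 6 months (median 23.9) and from 29.1 to 36.5 at 27 months (median 32.8), without overlap (0.64, SE 0.10, or 0.45 and not called when scaled by library totals). In male soleus its medians were 28.1 and 26.9 CPM, and the interaction of sex and age was -0.73. Kcnj14, an inward rectifier, was called at 27 months only in female soleus, at 1.27 (SE 0.42), and lost the call in 3 of 18 such fits.

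Kcng4, at chr8:119623854-119635680, was the gene called lower in the most sets at 27 months. In male tibialis anterior it ran from 36.3 to 48.2 CPM at 6 months (median 42.6) and from 6.61 to 33.6 at 27 months (median 27.7), without overlap, with a log2 difference of -0.84 (SE 0.17, adjusted p = 0.00028). In male gastrocnemius and soleus the differences were -0.82 (SE 0.18) and -0.99 (SE 0.26), and 8 of 10 libraries of 27 months were below all those of 6 months in each. The soleus call was lost in 2 of 18 fits that left out 1 library. No female set was called at 27 months, and the sexes differed by -1.60 in soleus (interaction of sex and age, log2 scale), where the female medians were 1.08 and 1.45 CPM.

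Kcnh2, the ERG channel, fell in female tibialis anterior from a median of 1 CPM (range 0.559 to 1.31) to 0.471 (0.329 to 0.699), a log2 difference of -1.06 (SE 0.17, adjusted p = 9.1e-06). Kcnh7, of the same family, was lower in gastrocnemius of both sexes, at -0.84 in males and -0.73 in females, and Kcnu1 in gastrocnemius and tibialis anterior of males, by 2.08-fold and 1.99-fold. The Kcnu1 call in tibialis anterior was lost in 13 of 18 fits that left out 1 library (adjusted p up to 0.083). Kcnt2 was lower in male tibialis anterior, at -0.65. At 27 months Kcnn2, a small-conductance channel like Kcnn3, was the only gene called in both directions. It was lower in male tibialis anterior (-0.59, SE 0.16) and higher in female soleus (0.59, SE 0.15). Scaled by library totals neither kept a fold above 1.5 (-0.56 and 0.38). With 1 library left out at a time these Kcnn2 calls were lost in 8 and 9 of 18 fits. In male diaphragm Kcnj2 ran from 141 to 260 CPM at 6 months (median 190) and from 48.2 to 160 at 27 months (median 129), a difference of -0.77 (SE 0.18), and 8 of 10 libraries were below all those of 6 months. Kcna2, a voltage-gated channel of myelinated axons, and Kcnk2, a mechanosensitive leak channel, were lower in male diaphragm at -0.64 and -0.75. Schwann cell markers were lower in that set for 3 of 12 genes, Cdh19 among them, beside 1.44% of all tested genes. The part of Schwann cells in the Kcna2 value was not tested. Without the 6 libraries of low correlation Kcnj2 was still called, at -0.59, and it was not called without replicate 2 of 6 months alone, at -0.58. Kcna2 at -0.54 and Kcnk2 at -0.68 missed the threshold (adjusted p = 0.085 and 0.057), while Kcng4 at -0.75, Kcnk1 at 1.38 and Kcnk3 at 0.87 passed it. The Kcna2 call was also lost in 6 of 18 fits that left out 1 library.

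The remaining 31 genes were called in no set at 27 months in the main fit with all libraries. Among them, 12 had an adjusted p below 0.05 in some set with a fold change of 1.5 or less, such as Kcna1, Kcna7, Kcnc1, Kcnj8, Kcnj11, Kcnk6, Kcnn1, Kcnq1, Kcnq1ot1 and Kcnq5. Kcna7 had log2 differences from -0.46 to 0.08 over the 8 sets, and Kcnq5, a channel of the M current family, from -0.55 in male diaphragm to 0.46 in female tibialis anterior. Kcnj11 had differences from -0.13 to 0.23 and Kcnma1 from -0.22 to 0.09. A further 7 genes (Kcnc2, Kcne4, Kcnh1, Kcnk1, Kcnn4, Kcns3 and Kcnv2) were called only at another older age. Kcne4, an auxiliary subunit, was lower at 21 and 24 months in female soleus and female tibialis anterior. The other 12 genes, such as Kcna4, Kcna5, Kcnd1, Kcne3, Kcng3, Kcnh3, Kcnj13, Kcnk3, Kcnma1, Kcnmb1 and Kcnt1, met neither condition. Of these, Kcna4, Kcng3 and Kcnh3 could be tested in only 2 of the 8 sets and Kcnt1 in 6. Where tested, the log2 differences were 1.40 and 1.45 for Kcng3, 0.69 and 1.15 for Kcna4 and -0.0039 and 0.49 for Kcnh3. Without the libraries set apart, some of the 31 genes were called at 27 months. In male diaphragm these were Kcna1 at -0.64, Kcnc2 at -0.83, Kcnq5 at -0.60, Kcnk3 at 0.89 and Kcnn4 at 1.59. In female tibialis anterior it was Kcnq1, at 0.60.

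**Figure D5:**
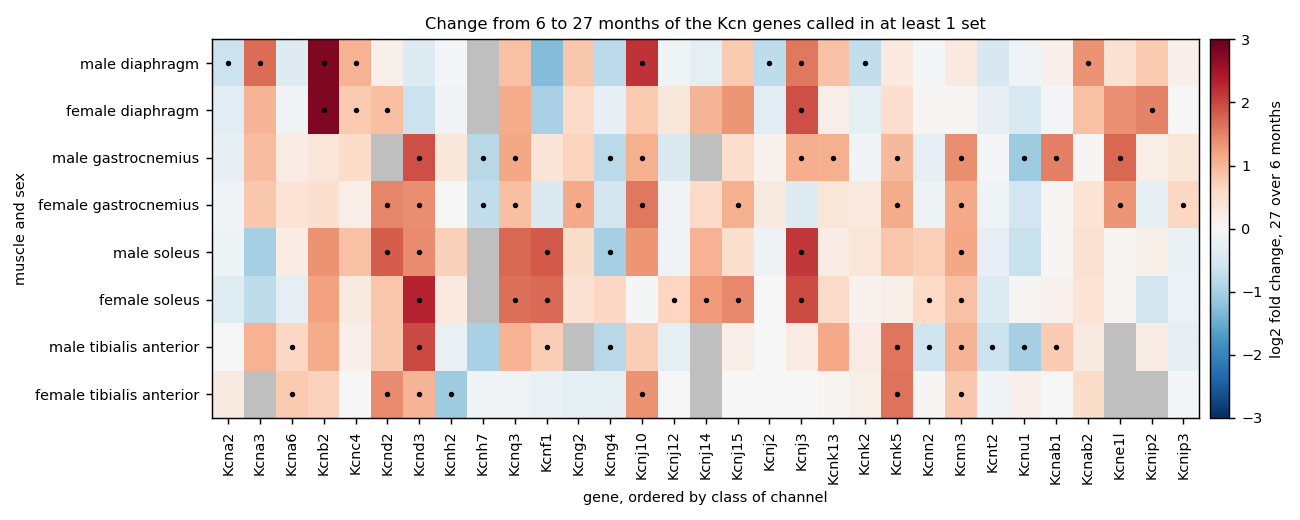
Log2 difference of 27 against 6 months for 31 of the 32 potassium channel genes called in at least 1 of the 8 muscle and sex sets, red for higher and blue for lower, with black dots on called cells and grey cells for genes that were not tested. Kcnn3 and Kcnd3 have dots in all 6 limb sets, and Kcnb2 has dots in both diaphragm sets alone.

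The differences in change between muscles and sexes were tested for all 63 genes between muscles and for 57 to 62 between the sexes. Each muscle was set against the same gastrocnemius libraries. The age change differed from that of gastrocnemius in diaphragm for 8 genes in males (background 1.92% higher and 1.52% lower) and 8 in females (1.53% and 1.67%). Kcnb2 was higher in diaphragm and Kcnd3 and Kcnn3 lower in both sexes, with Kcnd3 at -2.30 in males and -2.02 in females and Kcnn3 at -1.06 and -1.08. Kcnj2 was also lower in diaphragm in both sexes, at -0.85 and -0.58. In soleus 2 genes differed from gastrocnemius in males (0.341% and 0.253%) and 6 in females (2.98% and 2.53%), and Kcnn2 was among them in both sexes, at 0.98 and 0.75. In tibialis anterior no channel gene was called against gastrocnemius by edgeR, with 3 genes in males and 7 in females at an unadjusted p below 0.05. Scaled by library totals, the differing genes in females numbered 2 higher and 7 lower in diaphragm, 3 and 9 in soleus and 0 and 1 in tibialis anterior. Between the sexes, 3 genes differed in gastrocnemius, 2 in soleus, 1 in tibialis anterior and 0 in diaphragm by edgeR, where 2 had an unadjusted p below 0.05. The backgrounds for higher and lower were 0.699% and 0.896%, 0.459% and 0.396%, 1.04% and 0.696%, and 0% and 0%. Scaled by library totals, the change was higher in males for 2 genes and lower for 2 in gastrocnemius, and likewise in soleus.

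Genes that muscle is known to turn on after loss of its nerve supply were listed beside the channel genes. Of 12 such genes, 9 were higher at 27 months in gastrocnemius of each sex, 7 in soleus of each sex, and 11 in female and 9 in male tibialis anterior. In diaphragm 1 was higher in females and 4 in males, and none of the 12 was lower in any set. The share of all tested genes called higher, females first, was 4.08% and 3.88% in gastrocnemius and 1.72% and 0.808% in soleus. It was 5.93% and 2.81% in tibialis anterior and 0.543% and 4.16% in diaphragm. The share called lower ran from 0.378% in male soleus to 2.41% in female soleus. Of 31 potassium handling genes not named Kcn, 28 or 29 could be tested. Abcc8, the sulfonylurea receptor that joins Kcnj11, was higher in gastrocnemius and tibialis anterior of both sexes, with log2 differences from 0.81 to 1.23. Lrrc55, an auxiliary subunit of the Kcnma1 channel, was lower in 5 sets, with differences from -0.92 to -1.81. The other genes of this list were called in at most 2 sets each.

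Markers of other cells and fibre types moved in some sets. Slow fibre genes were higher for 5 of 9 in female gastrocnemius, 4 in female tibialis anterior, where Myl3 was lower, and 2 in male gastrocnemius. In female tibialis anterior all 8 liver genes were higher, with a summed level of 1.23 to 18.4 CPM at 6 months (median 10.6) and of 3.77 to 505 CPM at 27 months (median 60.4), together with 3 of 5 T cell and 4 of 9 macrophage genes. Of 12 Schwann cell genes, 3 were higher in female and 2 in male tibialis anterior. Among all tested genes 5.93% were higher in female and 2.81% in male tibialis anterior, and 4.08% in female and 3.88% in male gastrocnemius. Endothelial and muscle fibre genes were called in no set. The part of these shifts in the channel values was not tested. Without the 21 libraries set apart, 82 gene and set pairs were called, among them all 72, and male diaphragm had 17 in place of 10.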

How the data were processed

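The authors deposited raw read counts per gene, 1 table per library, for 407 libraries of 4 muscles, 2 sexes and 6 ages. The libraries were strand-specific total RNA with ribosomal RNA removed, and the counts came from the ArrayStudio pipeline on mm10 with a gene model based on RefSeq; the versions and the strand setting of the counting are not given in the sources used here. CPM were computed on library totals and summarised as log2(CPM + 0.5).

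Potassium channel genes were those with a symbol beginning with Kcn above 0.5 CPM in at least 8 libraries. These genes and all lists of genes were chosen with earlier results of these data known. Genes described at length were those called at 27 months in at least 2 sets, the 3 largest changes in a set, the highest and most variable genes, those with an interaction, and channels listed by function; some genes that were counted are not reported here by name.

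Counts were fitted with edgeR 4.0.16 (R 4.3.3), quasi-likelihood test, TMM scaling and filterByExpr, over all genes of a muscle and sex, of a muscle, or of a sex. P-values were adjusted by Benjamini-Hochberg over all genes tested, and a gene was called with a fold above 1.5 and an adjusted p below 0.05, or for interactions with an adjusted p below 0.05. Labels give separate libraries but do not tie muscles to mice, so libraries were taken as independent, although same-numbered limb libraries of 1 age often deviated together (252 of 306 pairs with a correlation over 0.1); a fit with the number as a block within age was an alternative. Limma-voom (limma 3.58.1), DESeq2 1.42.0, other scalings and left-out libraries were alternatives, and the scripts were tested on simulated data.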

Additional observations from a re-analysis of the deposited data

Results flagged for a closer look

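Each named gene called at 27 months in a set was examined in the groups of 6 and 27 months of that set. In 11 of 138 such pairs of gene and group (7.97%), 1 library lay far from the others of its group of 8 or 10. The same libraries recur across pairs, so this share cannot be set against a chance rate. Of the 11 pairs, 8 were in the diaphragm. In male diaphragm at 27 months replicate 8 had 60.9 CPM of Kcnc4, the highest of its group, and 48.2 CPM of Kcnj2 and 2.07 CPM of Kcnj3, the lowest. In male diaphragm at 6 months replicate 2 was lowest for Kcnab2 at 0.0518 CPM, Kcnc4 at 4.02 CPM and Kcnk2 at 2.41 CPM. In female diaphragm Kcnc4 was lowest in replicate 0 of 27 months at 4.19 CPM, and Kcnb2 in replicate 1 of 6 months at 0.0336 CPM. All of these but the last are among the 6 libraries of low correlation. In the limb muscles, replicate 0 of 27 months had 69.2 CPM of Kcnn3 in female soleus and 0.661 CPM of Kcng2 in female gastrocnemius, and replicate 1 had 1.30 CPM of Kcnk13 in male gastrocnemius.

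The change from 6 to 27 months differed between the sexes, by a test of the interaction, in 3 muscles. On the log2 scale, as male change minus female change, Kcnab1 had 1.49 in gastrocnemius and 0.77 in tibialis anterior, Kcnj3 had 1.51 in gastrocnemius, and Kcng4 had -1.60 and Kcnj12 had -0.73 in soleus.

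The same change differed between diaphragm and gastrocnemius in both sexes for 4 genes. As diaphragm minus gastrocnemius, on the log2 scale, Kcnb2 had 2.45 in males and 2.30 in females, Kcnd3 had -2.30 and -2.02, Kcnn3 had -1.06 and -1.08, and Kcnj2 had -0.85 and -0.58. In males alone, Kcnab1 had -1.34, Kcnf1 had -1.65, Kcnq5 had -0.86 and Kcnq1ot1 had -0.52. In females alone, Kcnj3 had 2.33, Kcnip2 had 1.78 and Kcnj8, the vascular pore of the ATP-sensitive channel, had -0.63. Without the 6 libraries of low correlation Kcnf1 was at -1.48 and Kcnq1ot1 at -0.37 and both missed the threshold (adjusted p = 0.13 and 0.16, edgeR). Whether these differences between muscles differ in turn between the sexes was not tested.

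As soleus minus gastrocnemius, Kcnn2 had 0.98 in males and 0.75 in females. In males Kcnab1 had -1.48. In females Kcnj3 had 2.35, Kcnf1 had 2.12, Kcng4 had 1.17, Kcnj12 had 0.75 and Kcnk5 had -0.94. When scaled by library totals, the interactions of Kcnip2 in female diaphragm, Kcnj12 and Kcnn2 in female soleus and Kcnn2 in male soleus missed the threshold.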

How the results depend on the processing

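No called difference between 27 and 6 months and no called interaction changed its direction under the alternatives run. Of 448 called differences between muscles, 9 changed sign with library totals, none of them called there: against tibialis anterior, male diaphragm Kcnab1 went to 0.21, Kcnma1 to 0.11, Kcnn1 to 0.13 and Kcnn2 to 0.34, and female diaphragm Kcnh2 to 0.20, Kcnj13 to 0.0099, Kcnma1 to 0.084, Kcnn1 to 0.038 and Kcnu1 to 0.26. With limma-voom 1 did, Kcnt1 in male soleus against tibialis anterior, at -0.13. None of 46 called differences between the sexes changed sign. Of the 72 gene and set pairs called at 27 months, 72 stayed called with DESeq2 and with RLE size factors, 65 with limma-voom, 68 with no filter on low counts, 64 with library totals, 58 with the run of sample numbers as a factor and 26 with Bonferroni adjustment. Leaving out the libraries of low correlation and scaling by library totals were added after seeing the data. For the counts below the cause was not tested, except that stricter thresholds call fewer genes by construction. The share of all genes called under each alternative is not given. These counts therefore do not separate a change in the channel genes from a change in all genes.

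With Bonferroni adjustment the genes called at 27 months and at any older age numbered 2 and 2 in female diaphragm, 4 and 5 in female gastrocnemius, 3 and 4 in female soleus, 3 and 3 in female tibialis anterior, 2 and 2 in male diaphragm, 6 and 6 in male gastrocnemius, 2 and 2 in male soleus and 4 and 4 in male tibialis anterior. With an adjusted p below 0.01 they were 2 and 3 in female diaphragm, 4 and 5 in male diaphragm and 3 and 3 in male soleus, and at any older age 11 in female soleus and 8 in male tibialis anterior. At that threshold the interactions of muscle and age were 5 in diaphragm of each sex, 3 in female and 0 in male soleus, and those of sex and age 0 in soleus and 0 in tibialis anterior. A lower fold limit gave 13 and 18 in female tibialis anterior.

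DESeq2 called 18 and 18 genes in male diaphragm and 13 at any older age in male soleus, and 3 interactions of sex and age in tibialis anterior. Limma-voom called 6 in male diaphragm at 27 months, 5 interactions of muscle and age in female diaphragm, and 1 of sex and age in soleus and 2 in tibialis anterior. With no filter the male soleus had 1 interaction of muscle and age. With library totals female diaphragm had 3 genes at 27 months, the interactions of muscle and age were 12 in female soleus, 1 in female tibialis anterior and 1 in male soleus, and those of sex and age 4 in soleus. With the run factor male diaphragm had 2 at 27 months. Without the libraries set apart it had 17 and 17, and tibialis anterior had 2 interactions of sex and age.

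The replicate numbers did not pair the ages. Correlations of deviations were over 0.1 for 15 of 48 same-numbered limb pairs of 6 and 27 months and for 11 of 16 in diaphragm. Of these pairs, 7 in limb and 1 in diaphragm correlated best with their own number. The median over sets was 0.224 for same-numbered and 0.248 for other-numbered diaphragm libraries, and -0.018 and -0.014 in limb. Between limb muscles of 1 age 252 of 306 pairs were over 0.1, and 199 correlated best with their own number. With the number as a block within age (limma-voom, added after seeing the data), 433 of the 448 muscle differences and 22 of 24 interactions of muscle and age stayed called. Lost were those of Kcnip2 and Kcnj2 in female diaphragm, at 1.86 and -0.54 (adjusted p = 0.073 and 0.056). With the replicate block 63 of the 72 pairs stayed called. Female diaphragm had 3 genes at 27 months and 5 at any older age, male diaphragm had 6 at 27 months, and interactions of sex and age were 5 in gastrocnemius and 3 in tibialis anterior.

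Leaving out each library of 6 and 27 months in turn gave 2 to 6 genes in female diaphragm, 10 to 12 in female gastrocnemius, 8 to 10 in female soleus, 7 to 8 in female tibialis anterior, 7 to 14 in male diaphragm, 12 to 14 in male gastrocnemius, 3 to 7 in male soleus and 6 to 11 in male tibialis anterior. Female diaphragm had 3 without replicate 7 of 27 months or replicate 0 or 3 of 6 months and 2 without replicate 4 of 6 months. Male soleus had 3 without replicate 4 of 6 months, and male tibialis anterior had 6 without replicate 8 of 27 months or replicate 3 of 6 months. Kcnab2 in male diaphragm was at 1.20 without replicate 8 of 27 months (adjusted p = 0.059, edgeR).

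Many channel genes were near or below 1 CPM, where counting error is large, and between 1 and 9 of the 63 genes were too low to be tested in a set. Age and collection day cannot be told apart, and p-values rest on the spread between libraries.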
